A study of Saccharomyces cerevisiae with 2 samples.

Results

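The mitochondrial TCA cycle enzymes examined here are the products of 10 nuclear genes, CIT1, ACO1, IDH1, IDH2, KGD1, KGD2, LSC1, LSC2, FUM1 and MDH1, out of 7126 rows in the deposited expression table. The members were taken by gene name. The table itself gives a name for 3 of them (CIT1, ACO1 and KGD1), and the other 7 were found by their gene ID through the RefSeq annotation of the R64 reference genome. The descriptions in the table name the enzyme of the cycle for all 10. Succinate dehydrogenase, the remaining enzyme of the cycle, is not among the members and is described beside them.

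RNA was sequenced from the recombinant Saccharomyces cerevisiae strain BL03-D-4 after 24 h of growth, with 1 library from YPM and 1 library from YPD2. BL03-D-4 is a carotenoid producer made from the laboratory strain BY4742, and both libraries come from it and share the same alleles. GAL80 is replaced by crtB, crtI and crtE, each behind the HSP26 promoter, a truncated HMG-CoA reductase is expressed from the CIT1 promoter, and ALD6 is deleted. YPM is a modified YPD with yeast extract from Angel, added phosphate and sulfate salts and a trace metal solution, while YPD2, which the sample labels call YPD, has yeast extract from Oxoid and neither addition. The effect of the yeast extract, of the salts and of the metals cannot be told apart. The paper places the sampling time in stationary phase and reports that growth differed between the media. Growth stage is thus not separated from the medium either. The column MYPD was read as YPM, the modified YPD. The strain is 1 clone and each medium has 1 library, so the differences below are descriptions of these libraries and carry no p-value. How many cultures went into a library is not stated.

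The TCA cycle oxidises acetyl groups to carbon dioxide in the mitochondrial matrix and passes the electrons to NADH and to ubiquinone, from which the respiratory chain draws. It also supplies 2-oxoglutarate for glutamate and succinyl-CoA for heme. In S. cerevisiae many of its genes are repressed by glucose and come on when the cells turn to respiration, with the CCAAT-binding HAP complex as a well-known activator, and the Rtg1 and Rtg3 factors of the retrograde pathway serve the first steps of the cycle when respiration is weak.

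The values are TPM, a transcript share on a fixed scale, estimated with RSEM and corrected for transcript length, so levels of different genes within a library can be set side by side. They summed to 925918 TPM for the YPM library and 937091 TPM for YPD2. The sequencing depth behind them is unknown. A TPM is a share of the transcripts quantified in a library, so less of an RNA per cell and more of the other RNAs cannot be told apart. GAL80 and ALD6, both deleted in the strain, were listed at 0 in both libraries, but a 0 in this table can be a failed estimate, since COX4, a subunit that cytochrome c oxidase needs, was also listed at 0 in both. Differences are log2 ratios of YPM over YPD2, with 1 TPM added on both sides. The 6350 genes whose mean reached 1 TPM were compared, and a gene was called higher or lower when its ratio was at least 1 on the log2 scale in that direction.

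Of the 10 members, 1 was called lower in YPM and none higher, beside 5.15% of all genes compared that were called lower, 3.28% called higher and 8.43% called in either direction. A count of 1 among 10 says little against such a background. In numbers, 208 genes were called higher and 327 lower, and when the YPM values were rescaled so that the median gene had no change, 255 were higher and 257 lower. The call was ACO1. The members together had a median log2 ratio of -0.50, and 8 of the 10 were below 0. Among all genes compared the median was -0.13, with 63.1% below 0. These shares of all genes are also the background for the counts in the other lists below. The same comparison can be made at the members' own level of expression. Of the 849 genes whose mean was at least that of the lowest member, 194 TPM, 59 (6.95%) were called lower, and their median log2 ratio was -0.04. The summed level of the 10 members was 3796 TPM in YPM against 5502 TPM in YPD2, or 0.410% against 0.587% of the listed TPM. ACO1 and MDH1 made up 58.4% of this difference.

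**Figure D1:**
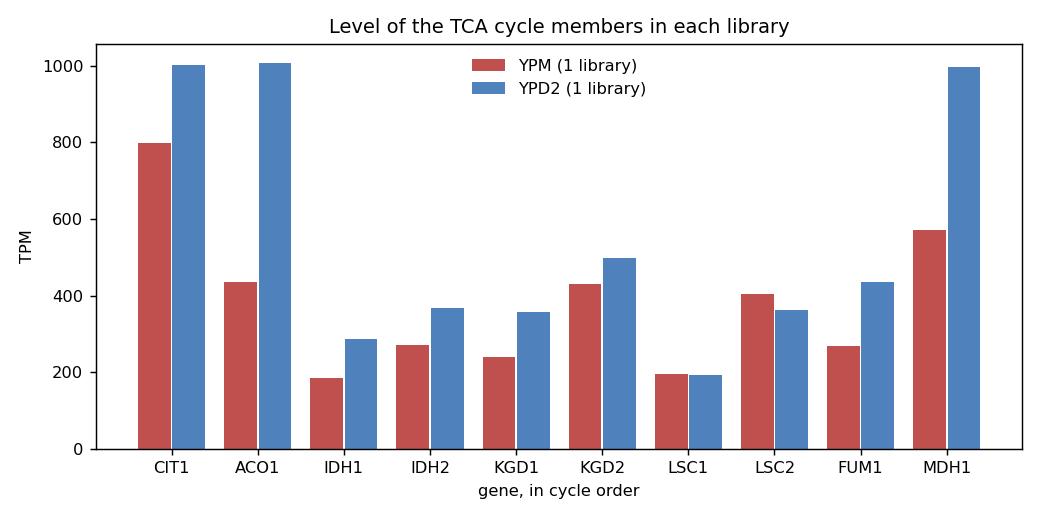
Level in TPM (vertical axis) of the 10 members in cycle order (horizontal axis), with the left bar of each pair for the YPM library and the right bar for the YPD2 library, 1 library each and therefore no error bars. The widest gaps are those of ACO1, 436 TPM in YPM against 1007 TPM in YPD2, and MDH1, 571 TPM against 996 TPM, while the bars of LSC1 are nearly of equal height.

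The cycle begins with citrate synthase, which joins acetyl-CoA to oxaloacetate. CIT1 (YNR001C, chromosome XIV, 629622 to 631061 of R64) had 797 TPM in YPM, against 1001 TPM in YPD2, a log2 ratio of -0.33. It was the most abundant member in YPM and stood at rank 186 among all genes compared, against rank 140 in YPD2. The strain carries a further copy of the CIT1 promoter in front of the truncated HMG-CoA reductase, and whether its transcript added reads to the CIT1 row was not tested.

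Aconitase, an iron-sulfur enzyme that turns citrate into isocitrate, had the widest difference of the members. ACO1 (YLR304C, chromosome XII, 735212 to 737548) fell to 436 TPM in YPM, against 1007 TPM in YPD2, a log2 ratio of -1.21. Of the 6350 genes compared, 220 (3.46%) had a log2 ratio as low or lower. ACO1 was the most abundant member in YPD2, level with CIT1 at a ratio of 1.01, and in YPM it stood at 0.547 times CIT1.

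NAD-dependent isocitrate dehydrogenase makes 2-oxoglutarate and is built from both IDH1 and IDH2, of which IDH2 is the catalytic subunit and IDH1 the regulatory subunit. IDH1 (YNL037C, chromosome XIV, 557920 to 559002) had 186 TPM in YPM, against 287 TPM in YPD2, a log2 ratio of -0.63. IDH2 (YOR136W, chromosome XV, 580250 to 581359) was listed at 272 TPM and 367 TPM, a log2 ratio of -0.43. Both subunits were thus listed lower in YPM without reaching the limit, and IDH1 stood at 0.683 times IDH2 in YPM and at 0.782 times in YPD2. IDH2 is the less certain of these values. According to the table, a dubious reading frame, YOR135C, overlaps part of it, and its name places it on the opposite strand. YOR135C had 323 TPM in YPM, against 514 TPM in YPD2, and no strand setting is stated, so reads of the shared stretch cannot be told apart.

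The 2-oxoglutarate dehydrogenase complex forms succinyl-CoA. Its first component, KGD1 (YIL125W, chromosome IX, 122689 to 125733), had 239 TPM in YPM, against 356 TPM in YPD2, a log2 ratio of -0.57. Its second component, the succinyltransferase KGD2 (YDR148C, chromosome IV, 753675 to 755066), was listed at 429 TPM and 497 TPM, a log2 ratio of -0.21. The difference of KGD2 was close to that of the median gene. The third component is the lipoamide dehydrogenase LPD1, which pyruvate dehydrogenase and the glycine cleavage system also use, and it had 378 TPM in YPM and 442 TPM in YPD2, a log2 ratio of -0.22. KGD1 therefore stood at 0.557 times KGD2 in YPM and at 0.717 times in YPD2, while LPD1 kept nearly the same ratio to KGD2, 0.882 in YPM and 0.889 in YPD2. KGD4, a small subunit that helps to hold the third component in the complex, had 223 TPM in YPM, against 386 TPM in YPD2, a log2 ratio of -0.79.

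Succinyl-CoA ligase, the step that yields a nucleoside triphosphate directly, was the enzyme whose subunits were not listed lower in YPM. Its alpha subunit LSC1 (YOR142W, chromosome XV, 593057 to 594046) had 195 TPM in YPM and 194 TPM in YPD2, a log2 ratio of 0.01. Its beta subunit LSC2 (YGR244C, chromosome VII, 978036 to 979319) had 405 TPM in YPM and 363 TPM in YPD2, a log2 ratio of 0.16. Both lay above the median gene, and 76.7% of all genes compared had a log2 ratio as low as that of LSC2 or lower. The ratio of LSC1 to LSC2 was 0.481 in YPM and 0.535 in YPD2. LSC1 was the least abundant member in YPD2, and in YPM only IDH1 among the members was lower.

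Fumarase, which in yeast works in the matrix and in the cytosol from the same gene, converts fumarate to malate. FUM1 (YPL262W, chromosome XVI, 47336 to 48802) had 268 TPM in YPM, against 434 TPM in YPD2, a log2 ratio of -0.70. Malate dehydrogenase then restores oxaloacetate. MDH1 (YKL085W, chromosome XI, 279123 to 280127) had 571 TPM in YPM and 996 TPM in YPD2, a log2 ratio of -0.80, the lowest of the members after ACO1. Of all genes compared, 8.19% had a log2 ratio as low as that of MDH1 or lower, and for FUM1 the share was 11.0%.

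**Figure D2:**
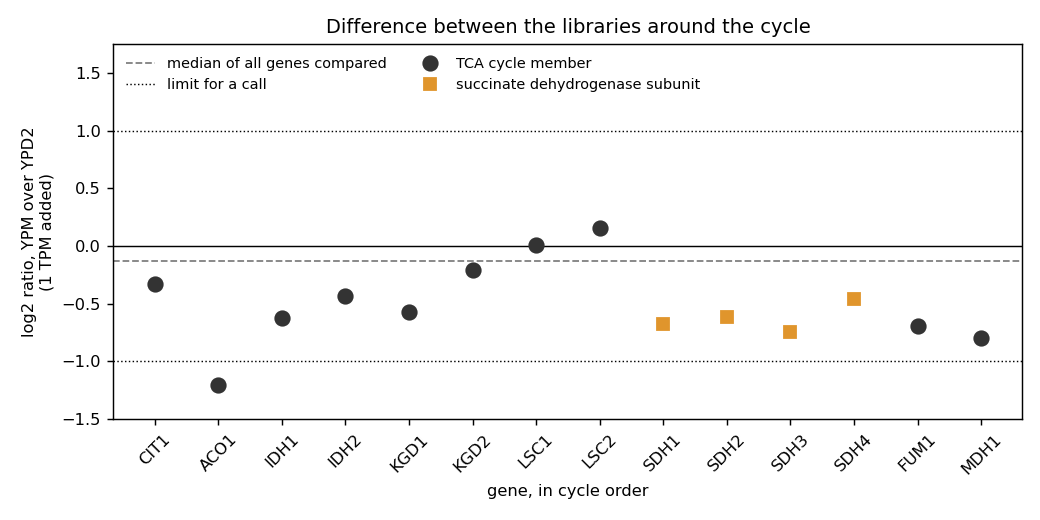
Log2 ratio of YPM over YPD2 with 1 TPM added (vertical axis) for the genes of the cycle in order (horizontal axis), with circles for the 10 members, squares for the 4 succinate dehydrogenase subunits, a dashed line for the median of all genes compared (-0.13) and dotted lines at the limit of 1 in either direction. Each point is 1 library over 1 library. ACO1 at -1.21 lies beyond the limit, and LSC1 (0.01) and LSC2 (0.16) are the points above the dashed line.

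In YPM the order of the members by level was CIT1, MDH1, ACO1, KGD2, LSC2, IDH2, FUM1, KGD1, LSC1 and IDH1, and in YPD2 it was ACO1, CIT1, MDH1, KGD2, FUM1, IDH2, LSC2, KGD1, IDH1 and LSC1. Neighbours such as ACO1 and KGD2 in YPM (436 and 429 TPM), or ACO1, CIT1 and MDH1 in YPD2 (1007, 1001 and 996 TPM), differ by so little that their order has no meaning without a known error. From the lowest to the highest member the levels spanned 4.30 times in YPM and 5.19 times in YPD2. All members were well expressed, at rank 829 or above in YPM and at rank 875 or above in YPD2.

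**Figure D3:**
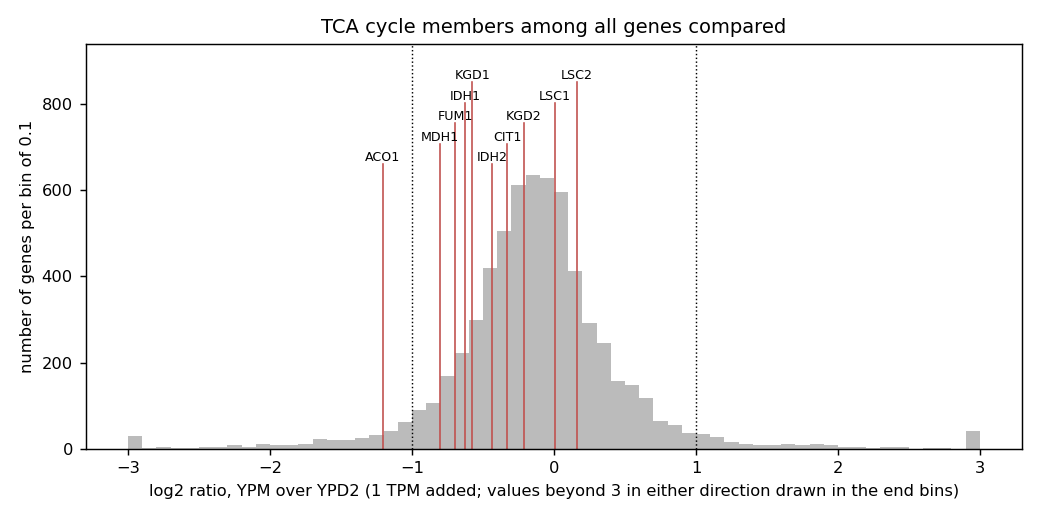
Number of genes per bin of 0.1 (vertical axis) over the log2 ratio of YPM over YPD2 with 1 TPM added (horizontal axis) for all 6350 genes compared, with values beyond 3 drawn in the end bins, a red line for each member and dotted lines at the limit for a call. The members run from ACO1 at -1.21 to LSC2 at 0.16, and 8 of the 10 lie below the median of all genes.

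The gene models of R64 bear on how far these values can be trusted. No member has an intron, and the coding sequences, on 8 chromosomes, are between 990 and 3045 bases long. None of the 10 coding sequences has a 50-base word that occurs elsewhere in the reference genome, CIT1 included, so paralogs share no such word with them. No other RefSeq gene overlaps a member. Rows without a RefSeq match were not searched for overlap, and YOR135C, which overlaps IDH2, was not found by this search. The summed level of IDH2 and YOR135C had a log2 ratio of -0.57.

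Promoters were searched for short motifs because the HAP complex binds CCAAT and Rtg1 with Rtg3 binds GTCAC. The window was the 500 bases before the start codon in R64, read on both strands. CCAAT was found before 8 members, CIT1, ACO1, IDH1, IDH2, KGD1, KGD2, FUM1 and MDH1, and in 62.4% of 6000 promoters. These are the 8 members with a log2 ratio below 0, a coincidence of letters and values that was not tested. In a window of 250 bases, chosen after the first result was seen, CCAAT was left before 4 members (ACO1, IDH1, IDH2 and MDH1) and in 35.4% of promoters. CIT1, KGD1, KGD2 and FUM1, also below 0, had no CCAAT in this window, so the match with the sign was lost. The 13 CCAAT sites lie between 89 and 364 bases before the start codon, 9 of them on the strand opposite to the gene, and none overlaps another motif searched. The sites of ACO1, MDH1 and FUM1, the members with the widest differences, and of CIT1, whose promoter the strain uses a further time, are shown from RefSeq R64 with CCAAT in capitals, each read 5′ to 3′ on the strand that carries CCAAT:
ACO1, chrXII:737824-737848, minus strand: aaggtcctgaCCAATcaatagagaa
ACO1, chrXII:737741-737765, minus strand: catcaaacctCCAATcgctgccggt
MDH1, chrXI:278866-278890, minus strand: cgtgattgagCCAATgaacgctgag
MDH1, chrXI:278984-279008, minus strand: gtacaaacacCCAATgcgtgctaac
FUM1, chrXVI:46970-46994, minus strand: tgaagcctctCCAATatggtagtga
FUM1, chrXVI:47047-47071, minus strand: caggaaagagCCAATcatcgaacgc
CIT1, chrXIV:631340-631364, plus strand: ttgcgatcctCCAATaacacaaaag

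GTCAC was found before 6 members, CIT1, ACO1, IDH1, KGD1, LSC2 and FUM1, and in 42.5% of promoters. A pair of spaced patterns was also searched, as letters only. Neither is taken here to stand for the carbon source response element, so the matches do not say which members hold that element. CCG, then 6 bases of any kind, then CCG was found before CIT1 and in 4.47% of promoters, and CGG, then 6 bases of any kind, then CCG before no member and in 2.70% of promoters. TATAAA was found before 6 members, CIT1, IDH2, KGD1, KGD2, LSC1 and LSC2, and in 60.5% of promoters. A match gives the letters and not a bound site.

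The factors themselves were compared as genes. HAP4, the regulatory subunit of the HAP complex whose own expression follows the carbon source, had 120 TPM in YPM, against 203 TPM in YPD2, a log2 ratio of -0.75. The DNA-binding subunits lay between HAP5 at -0.33 and HAP3 at -0.01, and none of the 4 was called. The 7 retrograde regulators had a median of -0.01, which became 0.12 when the median gene was set to no change, from RTG1 at -0.29 to RTG3 at 0.35, and none was called. Of the 4 retrograde targets outside the cycle 1 was called lower, ATO3, a transporter linked to ammonium export, with 101 TPM in YPM and 343 TPM in YPD2. The highest of these targets was PYC1 at -0.47.

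Succinate dehydrogenase carries out the step between succinyl-CoA ligase and fumarase and is at the same time complex II of the respiratory chain. SDH1, the flavoprotein, had 239 TPM in YPM, against 382 TPM in YPD2, a log2 ratio of -0.67. SDH2, the iron-sulfur subunit, had 897 TPM and 1375 TPM, a log2 ratio of -0.62. The membrane anchors SDH3 and SDH4 stood at -0.75 and -0.46. None of the 4 was called, and their median was -0.64. With these 4 subunits added to the 10 members, and without LPD1 and KGD4, the median was -0.59. Of the 4 assembly factors, SDH6 was called lower, with 683 TPM in YPM against 1432 TPM in YPD2 and a log2 ratio of -1.07, a call lost when the median gene was set to no change, and SDH5 was the highest at 0.27.

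Several steps of the cycle have isoenzymes, of which some work in other compartments. The 7 reported here each had a log2 ratio below 0, with a median of -0.69, and 3 were called lower. Among all genes compared, 63.1% were below 0 and 5.15% were called lower. MDH2, the cytosolic malate dehydrogenase of gluconeogenesis, fell to 486 TPM in YPM, against 2052 TPM in YPD2, a log2 ratio of -2.08. It stood at 0.851 times MDH1 in YPM and at 2.06 times in YPD2, so MDH1 was the more abundant of this pair in YPM and MDH2 in YPD2. The peroxisomal MDH3 had 366 TPM and 590 TPM, a log2 ratio of -0.69.

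Among citrate synthases, CIT3, a mitochondrial enzyme that also makes methylcitrate, fell to 115 TPM in YPM, against 409 TPM in YPD2, a log2 ratio of -1.82. The peroxisomal CIT2, a retrograde target, was listed at 1426 TPM and 2195 TPM, a log2 ratio of -0.62. CIT2 was more abundant than CIT1 in both libraries, at 1.79 times CIT1 in YPM and 2.19 times in YPD2. Of the NADP-dependent isocitrate dehydrogenases, the peroxisomal IDP3 was called lower with 55.6 TPM in YPM against 165 TPM in YPD2, a log2 ratio of -1.55, while the mitochondrial IDP1 stood at -0.41 and the cytosolic IDP2 at -0.37.

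Routes that feed the cycle and draw from it gave wider and narrower differences than the members. The 5 subunits of pyruvate dehydrogenase, the source of acetyl-CoA from glycolysis, had a median of -0.26, from PDX1 at -0.48 to PDA1 at -0.14, and none was called. Of 6 genes for the entry and exit of intermediates 3 were called lower, the glyoxylate shunt enzymes ICL1 (-2.04) and MLS1 (-1.56) and the gluconeogenic PCK1 (-1.38). ICL1 was listed at 802 TPM in YPM against 3301 TPM in YPD2. The malic enzyme MAE1 was the highest of these at 0.08. For PYC1 and PYC2, the pyruvate carboxylases, 8.46% and 8.44% of the words of 50 bases recur elsewhere in the genome, which leaves their values of -0.47 each less certain.

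Of the 11 mitochondrial carriers for intermediates and pyruvate, 1 was called lower. SFC1, which exchanges cytosolic succinate for fumarate, fell to 248 TPM in YPM, against 1169 TPM in YPD2, a log2 ratio of -2.23. The dicarboxylate carrier DIC1 followed at -0.92, and ODC2, a 2-oxodicarboxylate carrier, was the highest at 0.31. The median of the carriers was -0.29.

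At 2-oxoglutarate the cycle meets glutamate metabolism. All 5 glutamate enzymes had a log2 ratio below 0, with a median of -0.72, and 2 were called lower, beside 63.1% and 5.15% of all genes compared. GLN1, glutamine synthetase, fell to 464 TPM in YPM, against 1045 TPM in YPD2, a log2 ratio of -1.17. GDH3, an NADP-dependent glutamate dehydrogenase, was just past the limit at -1.01, with 512 TPM against 1035 TPM, and its call was lost under each of the 3 other scalings tried. The highest of these enzymes was GLT1 at -0.68.

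Factors that give enzymes of the cycle their lipoate and iron-sulfur clusters did not stand lower as a list, with a median of -0.04 over 13 genes that became 0.09 when the median gene was set to no change. ISU1, a scaffold for iron-sulfur clusters, had 403 TPM in YPM against 787 TPM in YPD2, a log2 ratio of -0.96. Its paralog ISU2 was the 1 call in this list and was higher in YPM, with 50.4 TPM against 23.4 TPM and a log2 ratio of 1.07, a call lost when 5 TPM were added in place of 1 TPM.

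The nuclear subunits of the respiratory chain and the ATP synthase were the largest list set beside the cycle. Of 31 genes, 30 were compared, 29 had a log2 ratio below 0 and none was called, while 63.1% of all genes compared were below 0. COX4, listed at 0 in both libraries, was the gene left out. The median was -0.33, from COX9 at -0.92 to ATP15 at 0.11, against -0.50 for the 10 members of the cycle. With 1 library per medium this difference between lists has no test.

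**Figure D4:**
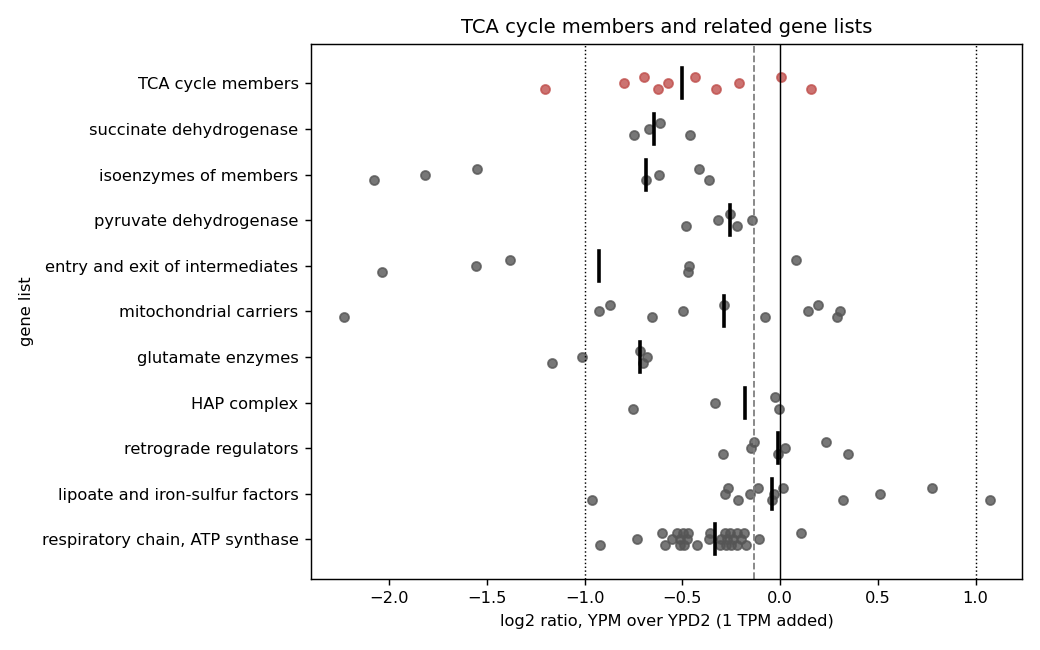
Log2 ratio of YPM over YPD2 with 1 TPM added (horizontal axis) for the genes of 11 lists (rows), with 1 point per gene, a black bar at each list's median, a dashed line at the median of all genes compared and dotted lines at the limit for a call. Points are set off vertically for legibility only. The members in the top row (median -0.50) and succinate dehydrogenase (-0.64) lie left of the dashed line for the most part, and the widest differences are those of SFC1 (-2.23), MDH2 (-2.08) and ICL1 (-2.04).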

How the data were processed

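Messenger RNA was selected on its polyA tails, and the authors ran RSEM and deposited its TPM values, a column for each library. HISAT2 and StringTie stand in the submitters' processing notes without a role. The genome build, annotation, versions, read length and strand setting are not given in the sources used here. The design allowed for counts, but the deposited values are TPM and no count test was run. Depth is unknown, and no interval or limit of detection can be given.

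Log2 ratios were taken after 1 TPM was added, over rows whose mean reached 1 TPM. Of the 7126 rows, 6044 matched RefSeq R64, which gave symbols, positions, 50-base words and promoter windows. The members and lists were chosen with earlier results of these data known. All members, succinate dehydrogenase, 7 isoenzymes, and the extremes and calls of each other list are named, while DIC1, HAP5, PYC2, COX4 and YOR135C were named after their values were seen. A further isoenzyme of the list set at the start is not reported here, for a reason unrelated to its value, and the list was counted without it. Alternatives were other pseudocounts (0.1 or 5 TPM, or none), minimum values, scalings, lists without single members, and a shorter promoter window. The work was done in Python 3.11.15 with numpy 2.4.6 and pandas 2.3.3, and figures with matplotlib 3.10.9.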

Additional observations from a re-analysis of the deposited data

How the results depend on the processing

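ACO1 was the 1 member called lower, and no member was called higher, under all 8 alternatives of pseudocount, minimum and scaling, and every member kept its sign. Most of these alternatives could not have changed the signs. The minimum values left all members in, since their means were at least 194 TPM, and a pseudocount equal on both sides cannot turn a sign. Only the scalings could do so, and each of them moved every member's value up. The members' median ran from -0.57 to -0.43 when single members were left out. By construction it could only be the value of KGD1 or of IDH2, the members in the middle. The range therefore says little about the weight of extreme members such as ACO1. Adding 5 TPM left 354 genes called, 203 of them lower, and 0 of the lipoate and iron-sulfur factors called higher. Rescaling YPM so that the typical gene above 10 TPM had a ratio of 0 moved every value up by about 0.13 and gave 255 genes higher and 257 lower, against 208 and 327. The members' median was then -0.37, with CIT1 at -0.20, ACO1 at -1.07, IDH1 at -0.50, IDH2 at -0.30, KGD1 at -0.44, KGD2 at -0.080, LSC1 at 0.14, LSC2 at 0.29, FUM1 at -0.57 and MDH1 at -0.67. The other medians were -0.51 for succinate dehydrogenase, -0.37 for LPD1 with KGD4, -0.56 for the isoenzymes, -0.13 for pyruvate dehydrogenase, -0.80 for entry and exit, -0.16 for the carriers, -0.051 for the HAP complex, -0.51 for retrograde targets, -0.59 for glutamate enzymes, -0.060 for SDH assembly and -0.20 for the respiratory chain, while retrograde regulators (0.12) and lipoate and iron-sulfur factors (0.087) turned from below to above 0. The same rescaling left 0 SDH assembly factors called, while both other scalings kept the 1 call. Each of these scalings left 1 glutamate enzyme called. The promoter window of 250 bases, added after seeing the data, left 4 members with CCAAT and 3 with GTCAC. The causes of these shifts were not tested beyond the construction of each alternative. No paired analysis was possible because each medium has 1 library. The unknown depth and the missing replicates limit every value.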
